A study of Mus musculus with 6 samples.

Results

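The 10 genes examined here, Hif1a, Epas1, Vegfa, Egln1, Egln3, Adm, Ndrg1, Pfkfb3, Ankrd37 and Car9, belong to the transcriptional response to low oxygen and to its angiogenic arm. They were taken as every row of the expression table whose symbol was on that list, and all 10 were found among its 30236 genes. The values are RNA levels in liver tumors that were induced in WT and Top1mt-KO (Top1mt -/-) mice, with 3 libraries per genotype. No member differed between the genotypes beyond the spread between tumors. Ndrg1 had the largest difference, with a mean 0.94 higher in Top1mt-KO on the log2 scale. Ankrd37 varied most between tumors, 14.1-fold from its lowest to its highest library, and Hif1a varied least, 1.42-fold.

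In well-oxygenated cells, prolyl hydroxylases of the Egln family mark the HIF alpha proteins for capture by the von Hippel-Lindau protein, which sends them to degradation. When oxygen falls, HIF alpha accumulates, pairs with its constitutive partner Arnt and binds hypoxia response elements, short DNA motifs with the core ACGTG or GCGTG, near genes for glycolysis, pH control and vessel growth. HIF alpha is controlled mainly as a protein, so its mRNA level is not a measure of its activity. The liver holds an oxygen gradient from the portal to the central vein, and tumors add poorly perfused regions to it.

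TOP1MT is a topoisomerase that acts on mitochondrial DNA and is found only in mitochondria. All mice were male C57BL/6 animals that were given diethylnitrosamine, a liver carcinogen, on postnatal day 14. From week 8 they also received carbon tetrachloride, a liver toxin, in 2 injections per week for 14 weeks, and the tumors were collected at week 22. By the labels, the groups differed in genotype alone: WT littermates or mice lacking Top1mt in every cell, bred from heterozygous parents. The study induced tumors in several litters over time, without randomization, and the litter behind each library is not given. Each library was made with a stranded kit from frozen tumor pieces of similar size, so the RNA came from every cell type in the piece, and fewer cells of a type cannot be told apart from less RNA per cell. The sources do not say that each library came from a different mouse, and p-values then measure the spread between these samples, which may in part be technical.

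Expression is given on the log2 scale of the deposited table, in which the libraries had already been normalized to each other. A value 1 higher is a doubling. Low values appear drawn toward the mean of the gene, which makes the differences of weakly expressed genes look smaller. The table holds no read counts, and the sequencing depth per library is therefore unknown. After the lowest 25% of genes by mean value had been set aside, limma compared the genotypes over 22677 genes, with Benjamini-Hochberg adjustment over all of them. All 10 members were among the genes tested. For single genes an exact two-sided permutation test was also run, in which 3 against 3 allow no p below 0.1.

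Several facts of the whole series touch what follows. Top1mt itself ranged from 5.99 to 8.01 in the WT libraries and from 5.58 to 6.41 in the Top1mt-KO libraries, and the library labelled WT replicate 2 lay inside the Top1mt-KO range, against its label (adjusted p = 0.999 by limma). Every direction below rests on the labels as given. In the library labelled Top1mt-KO replicate 1, the gene Gm42418 held 17.7% of the summed linear signal, against at most 0.387% in the other libraries. In the same library Lars2 held 4.62% and Gm15564 held 0.495%, against at most 0.044% and 0.00314% in the others. The cause was not tested. The tissue label fitted its markers, with Alb, the serum albumin gene of hepatocytes, between 20.26 and 21.12 in all 6 libraries. At an adjusted p of 0.05, limma called 0 genes, and 985 genes had an unadjusted p under 0.05.

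Promoter stretches of 5 hypoxia-inducible members are shown because HIF acts on its targets through the short core motif, which can be read directly in them. RefSeq promoter windows on build GRCm38.p6 were at hand for 8 of the 10 members (not for Epas1 and Ndrg1), as 10 windows. The 250 bases before each start site were searched for ACGTG and GCGTG on both strands, the reverse strand reading CACGT and CACGC. Of the 10 windows, 9 held a match, against 38.6% of all 32851 windows of that length. For Car9, the upstream start of Pfkfb3 and the downstream start of Vegfa, every match lay outside the longest stretch without an annotated exon. The members were listed as hypoxia response genes, so the contrast with all windows is a description. In each sequence below, only the longest stretch without an annotated exon is printed, 5′ to 3′ in the direction of the gene, and capitals mark matches to the motif. Ankrd37 (chr8:45999868-46000100, minus strand) held 3 matches, of which CACGC and GCGTG overlapped, and lay within the gene's longer annotated model. Egln3 (chr12:54203875-54204124, minus strand) and Egln1 (chr8:124949325-124949504, minus strand) held 1 each in the stretch printed. Adm (chr7:110627407-110627656, plus strand) held 2, and the upstream start of Vegfa (chr17:46032378-46032627, minus strand) held 0.
Ankrd37: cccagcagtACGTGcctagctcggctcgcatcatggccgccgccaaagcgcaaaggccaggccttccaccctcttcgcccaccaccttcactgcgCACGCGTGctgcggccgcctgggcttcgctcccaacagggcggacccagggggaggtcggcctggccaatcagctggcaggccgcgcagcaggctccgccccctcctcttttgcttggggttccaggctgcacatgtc
Egln3: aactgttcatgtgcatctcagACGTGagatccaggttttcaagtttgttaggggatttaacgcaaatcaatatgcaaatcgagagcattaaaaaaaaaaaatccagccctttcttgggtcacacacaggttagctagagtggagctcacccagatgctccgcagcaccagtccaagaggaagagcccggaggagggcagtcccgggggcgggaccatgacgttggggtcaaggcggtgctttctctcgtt
Egln1: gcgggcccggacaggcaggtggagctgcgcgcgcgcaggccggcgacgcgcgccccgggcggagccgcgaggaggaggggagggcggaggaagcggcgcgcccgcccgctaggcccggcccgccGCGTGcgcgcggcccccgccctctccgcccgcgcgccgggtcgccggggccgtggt
Adm: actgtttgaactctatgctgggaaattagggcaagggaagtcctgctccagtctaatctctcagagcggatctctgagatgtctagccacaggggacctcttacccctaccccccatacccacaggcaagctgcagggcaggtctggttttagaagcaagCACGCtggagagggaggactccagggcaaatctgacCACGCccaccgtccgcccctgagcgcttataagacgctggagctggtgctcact
Vegfa: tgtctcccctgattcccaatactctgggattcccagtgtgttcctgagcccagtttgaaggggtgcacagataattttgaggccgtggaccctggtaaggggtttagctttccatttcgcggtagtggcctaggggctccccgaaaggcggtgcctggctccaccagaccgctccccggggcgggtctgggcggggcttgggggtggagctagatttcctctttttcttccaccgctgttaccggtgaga
Windows with 3 or more matches made up 6.58% of all windows. Among the members they were those of Ankrd37, Hif1a and the downstream start of Pfkfb3, and in each of them some matches overlapped. ACGTG overlaps the E-box CACGTG, which other factors bind and which 6.02% of all windows held, and among the members it was in the windows of Hif1a and of the downstream start of Pfkfb3. A match is a description of the letters, and no binding was measured here.

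Levels were compared between members per length, because longer transcripts yield more reads. On the scale of the log2 value minus the log2 of exon length in kb, Epas1, which encodes HIF-2alpha, was the most abundant member with a mean level of 9.58 ± 0.24 (SD over 6 libraries). Vegfa, the main endothelial growth factor of the family, followed with 8.97 ± 0.35, and the ranges of these 2 genes overlapped. Hif1a, which encodes HIF-1alpha, came next with 7.49 ± 0.20, below both and without overlap. Egln1 at 6.76, Egln3 at 6.24, Pfkfb3 at 5.86, Ndrg1 at 5.01, Ankrd37 at 4.76 and Adm at 4.26 made up a run in which each gene overlapped the next. Car9 was the least abundant, with a mean of 1.79 and no library in the range of Adm. With the longest transcript in place of the exon union, Egln3 and Pfkfb3 exchanged places and the rest of the order stood.

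**Figure D1:**
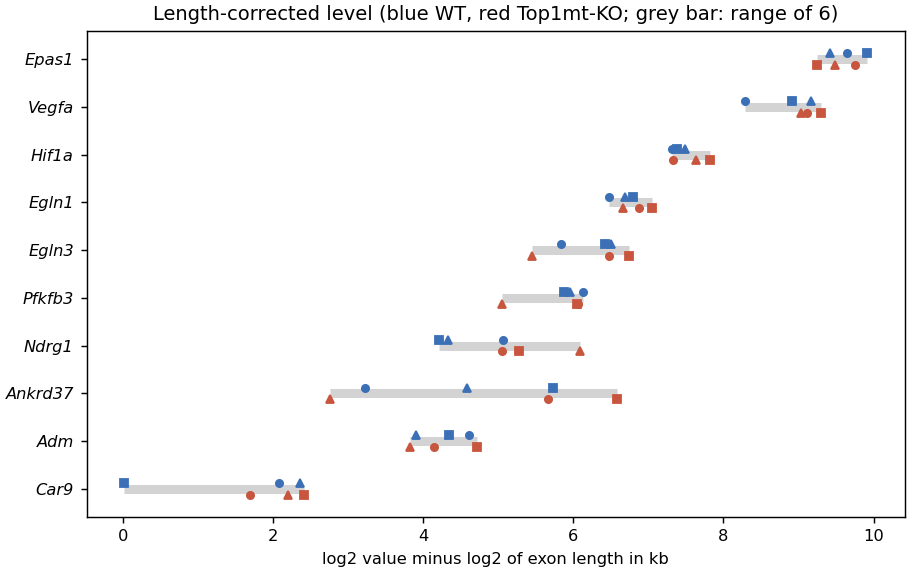
Length-corrected level of each member (x axis, log2 value minus log2 of exon length in kb) in the 6 libraries, with circles, squares and triangles for replicates 1, 2 and 3, WT in blue and Top1mt-KO in red. The grey bar is the range, and the bars of Epas1 and Vegfa lie above that of Hif1a while Car9 lies below all others.

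The oxygen-regulated subunits varied little between tumors. Hif1a (chr12:73901375-73947530 on GRCm38, plus strand) stood at 9.88, 9.94 and 10.05 log2 units in the WT libraries, given here and below in the order of replicates 1 to 3, and at 9.88, 10.38 and 10.19 in the Top1mt-KO libraries. Top1mt-KO replicate 1 sat with the WT libraries, so the groups overlapped. Its log2 fold change, here and below Top1mt-KO minus WT, was 0.20 (SE 0.16, 95% interval -0.17 to 0.56), with an adjusted p of 0.999 by limma and an exact permutation p of 0.3. Without Top1mt-KO replicate 1, the library rich in Gm42418, the groups of Hif1a did not overlap and the difference was 0.33 log2 units, with an adjusted p of 0.831 by limma. Groups separate more easily with a library fewer, and the share of all genes without overlap in that fit was not computed. Epas1 (chr17:86753700-86833410, plus strand) had 12.13, 12.40 and 11.90 in WT and 12.24, 11.73 and 11.97 in Top1mt-KO. Its highest value was in WT replicate 2 and its lowest in Top1mt-KO replicate 2, which was the highest library for Hif1a. Epas1 had a log2 fold change of -0.16 (SE 0.20, 95% interval -0.62 to 0.29), with an adjusted p of 0.999 by limma.

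Per length, Epas1 exceeded Hif1a in all 6 tumors. Gene length and library scale cancel when a difference between 2 genes inside a library is compared between genotypes. The log2 value of Epas1 minus that of Hif1a was 2.25, 2.46 and 1.86 in WT and 2.36, 1.35 and 1.77 in Top1mt-KO. The means were 2.19 ± 0.31 and 1.83 ± 0.51 (SD, n = 3 each), and the change of -0.36 was within the spread (exact permutation test, p = 0.4).

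The oxygen sensors differed in how far they varied between tumors. Egln1 (chr8:124908587-124949324, minus strand) encodes PHD2, the main HIF prolyl hydroxylase and itself a HIF target. It had 8.32, 8.65 and 8.54 in WT and 8.73, 8.89 and 8.51 in Top1mt-KO, a narrow band in which Top1mt-KO replicate 3 fell among the WT values. The log2 fold change was 0.21 (SE 0.16, 95% interval -0.17 to 0.58), with an adjusted p of 0.999 by limma. Egln3 (chr12:54178981-54203860, minus strand) encodes PHD3, the most hypoxia-inducible enzyme of the group. It had 7.25, 7.84 and 7.92 in WT and 7.89, 8.16 and 6.87 in Top1mt-KO, so its highest and its lowest library were both Top1mt-KO. The group means of 7.67 ± 0.37 and 7.64 ± 0.68 (SD, n = 3 each) left a log2 fold change of -0.03 (SE 0.35, 95% interval -0.84 to 0.78; adjusted p = 0.999 by limma). Its sign turned without WT replicate 2, WT replicate 3 or Top1mt-KO replicate 3, and without the last of these it was 0.36. Inside libraries, the log2 difference of Egln3 minus Egln1 changed by -0.24 between the genotypes (exact permutation test, p = 0.6).

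The secreted members carry the signal to vessels. Vegfa (chr17:46016993-46032369, minus strand) had 10.39, 11.02 and 11.26 in WT and 11.21, 11.39 and 11.13 in Top1mt-KO. WT replicate 1 was low, and the other 5 libraries lay close together across both genotypes. The log2 fold change was 0.35 (SE 0.23, 95% interval -0.17 to 0.87), with an adjusted p of 0.999 by limma and an exact permutation p of 0.3. It rested on WT replicate 1, without which it was 0.10, and it was 0.54 without WT replicate 3, where the groups did not overlap. With a library fewer such a separation comes more easily, and the share of all genes that had it was not computed. Adm (chr7:110627661-110629820, plus strand), the precursor of the vasodilator peptide adrenomedullin, had 5.31, 5.04 and 4.60 in WT and 4.84, 5.41 and 4.52 in Top1mt-KO. The values of the genotypes interleaved, with a log2 fold change of -0.06 (SE 0.39, 95% interval -0.95 to 0.84; adjusted p = 0.999 by limma). Under quantile normalization the sign of Adm turned, at 0.02.

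Ligand and receptor were also compared inside each tumor. Vegfa minus Kdr, the main VEGF receptor of endothelium, was 0.20 ± 0.43 in WT and 0.50 ± 0.26 in Top1mt-KO (SD, n = 3 each), a change of 0.31 within the spread (exact permutation test, p = 0.5). It was 0.06 without WT replicate 1 and 0.47 without WT replicate 3. Vegfa minus Hif1a changed by 0.16 (exact permutation test, p = 0.7). Adm minus Calcrl, the receptor subunit for adrenomedullin, changed by 0.06 (exact permutation test, p = 1). With Epas1 minus Hif1a and Egln3 minus Egln1, 5 within-library differences were computed, and all 5 overlapped between the genotypes.

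The metabolic members each had 1 library that stood apart. Pfkfb3 (chr2:11471433-11554077, minus strand) makes fructose 2,6-bisphosphate, the strongest activator of glycolytic phosphofructokinase. It had 9.05, 8.80 and 8.87 in WT and 8.99, 8.97 and 7.97 in Top1mt-KO. Top1mt-KO replicate 3 alone stood low, and the other 5 libraries lay between 8.80 and 9.05. The log2 fold change of -0.27 (SE 0.27, 95% interval -0.90 to 0.37; adjusted p = 0.999 by limma) was 0.07 without that library. Car9 (chr4:43506966-43513729, plus strand) encodes carbonic anhydrase IX, a membrane enzyme of pH control and a widely used hypoxia marker. It had 3.28, 1.22 and 3.56 in WT and 2.90, 3.62 and 3.41 in Top1mt-KO, with WT replicate 2 far below the rest. The log2 fold change of 0.62 (SE 0.68, 95% interval -0.95 to 2.19; adjusted p = 0.999 by limma) was -0.11 without WT replicate 2, the library whose Top1mt went against its label.

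Ndrg1, a stress-responsive gene induced by hypoxia and by other signals, had the largest difference between the genotypes. Ndrg1 (chr15:66929318-66969640, minus strand) had 7.79, 6.93 and 7.06 in WT and 7.78, 8.00 and 8.82 in Top1mt-KO. The lowest Top1mt-KO library and the highest WT library were nearly equal, so the groups overlapped there. The means were 7.26 ± 0.46 and 8.20 ± 0.55 (SD, n = 3 each), and the log2 fold change was 0.94 (SE 0.33, 95% interval 0.18 to 1.70). Its interval was the only 1 of the 10 that did not hold 0. The adjusted p was 0.999 by limma, the exact permutation p was 0.2, and the unadjusted p by limma was 0.0212. In the leave-one-out fits its log2 fold change stayed positive, from 0.63 without Top1mt-KO replicate 3 to 1.20 without WT replicate 1, but its unadjusted p was no longer under 0.05 without WT replicate 2, without WT replicate 3 or without Top1mt-KO replicate 3.

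Ankrd37, a small ankyrin-repeat protein gene used as a hypoxia marker, had the widest range. Ankrd37 (chr8:45996902-46005707, minus strand) had 3.85, 6.36 and 5.20 in WT and 6.29, 7.21 and 3.39 in Top1mt-KO. Both extremes were Top1mt-KO libraries, 14.1-fold apart, and only 0.697% of the genes tested had a larger SD over the 6 libraries. The log2 fold change of 0.49 (SE 1.01, 95% interval -1.83 to 2.82; adjusted p = 0.999 by limma) ran from -0.30 without Top1mt-KO replicate 2 to 1.61 without Top1mt-KO replicate 3. Exons of Lrp2bp on the opposite strand cover 22.7% of its exon bases, and the sources do not say whether strand was used in counting, so some of its reads may belong to that gene. In Hif1a, Ndrg1 and Car9 no other gene covered more than 9.29% of the exon bases.

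**Figure D2:**
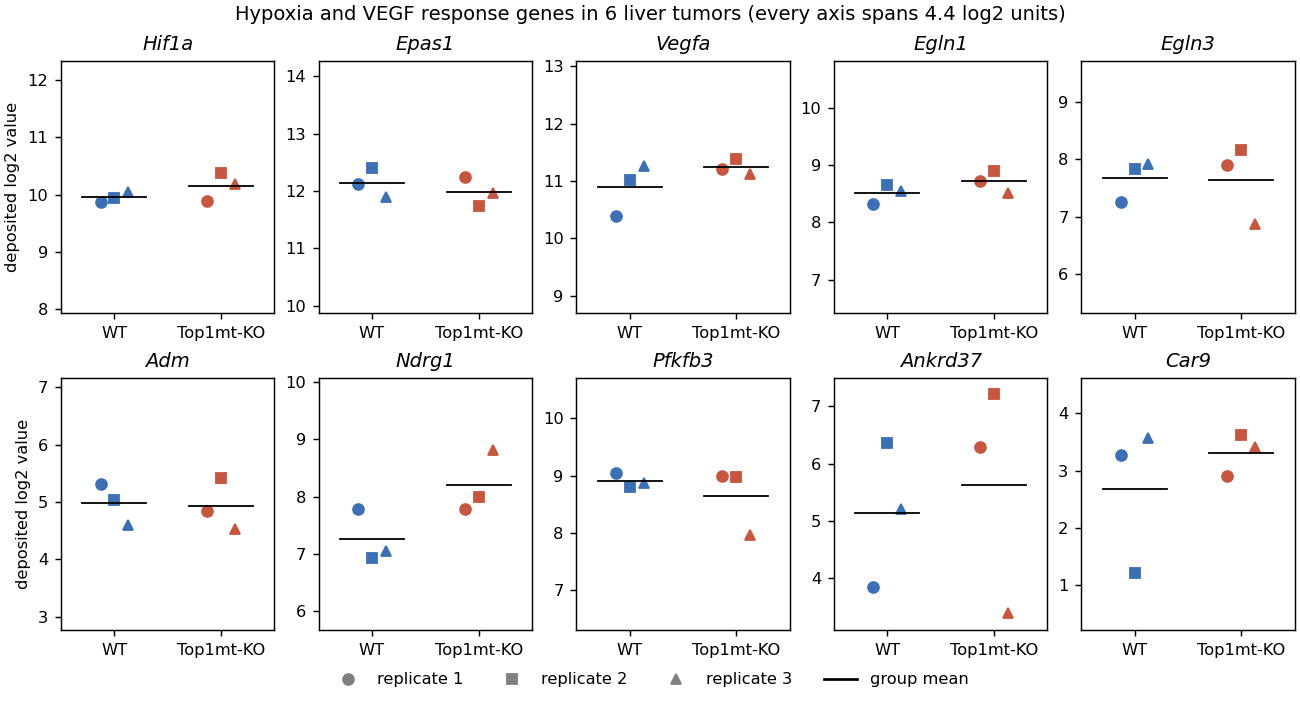
Deposited log2 value (y axis) of each member in the 3 WT (blue) and 3 Top1mt-KO (red) libraries, with symbols for replicates 1 to 3, the group mean as a line and the same 4.4 log2 units on every axis. The groups overlap in all 10 panels, and the points of Ankrd37 are spread over 3.82 units while those of Hif1a stay within 0.50.

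Counted over the list, 6 members had a higher mean and 4 a lower mean in Top1mt-KO. The median log2 fold change was 0.20, beside -0.02 over all genes tested, and the median absolute log2 fold change was 0.24, beside 0.21. By limma, 0 of 10 members passed an adjusted p of 0.05 (0% of all genes tested), and 1 of 10 had an unadjusted p under 0.05 (4.34% of all genes tested). The values of the genotypes were without overlap in 0 of 10 members, against 8.28% of all genes tested. For all 10, the range within WT or within Top1mt-KO exceeded the difference of the means. For 8 of 10 the range was wider among the Top1mt-KO libraries, though for Epas1 only just (0.511 against 0.497 in WT). The share over all genes tested was not computed for either count of ranges.

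**Figure D3:**
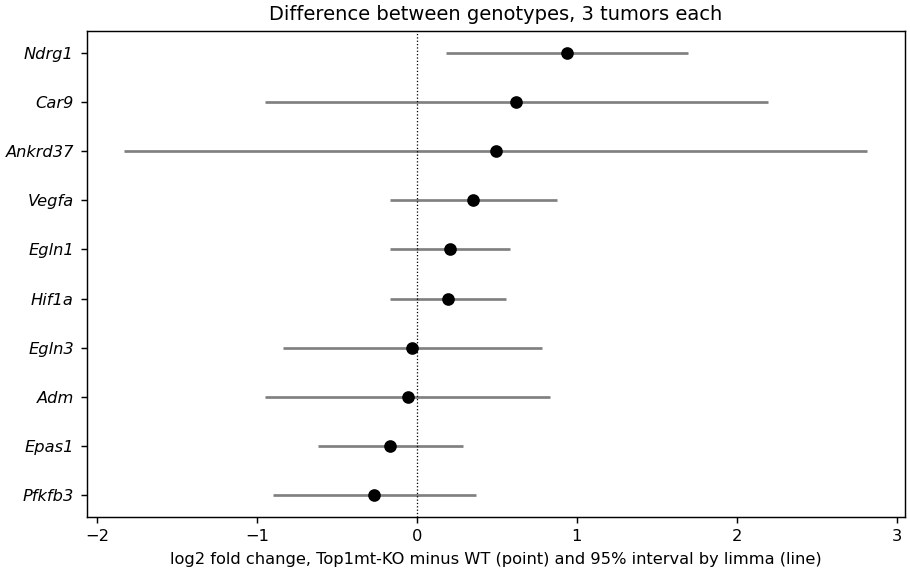
Log2 fold change of each member, Top1mt-KO minus WT (x axis, points), with its 95% interval by limma (lines), 3 libraries per genotype. Only the interval of Ndrg1, from 0.18 to 1.70, lies to 1 side of 0, and that of Ankrd37 is the widest, from -1.83 to 2.82.

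Among the partners and regulators of HIF no gene passed the test. Of 13 genes on that list, 7 had a higher and 6 a lower mean in Top1mt-KO, with a median log2 fold change of 0.0049. By limma, 0 had an unadjusted p under 0.05 (4.34% of all genes tested). Arnt, the shared partner, differed by 0.23 (SE 0.19; adjusted p = 0.999 by limma). Hif3a, a HIF alpha form that can act as an inhibitor, had the largest difference of the list, -0.91 (SE 0.75), with WT values of 3.99, 3.61 and 1.18 that spanned those of Top1mt-KO. Arnt2, a partner prominent in neurons, differed by -0.88 (SE 0.58). Vhl, the substrate receptor that captures hydroxylated HIF alpha, was the 1 gene of 13 without overlap (8.28% of all genes tested). It had 8.11, 8.02 and 8.00 in WT and 7.92, 7.93 and 7.68 in Top1mt-KO. For Vhl the log2 fold change was -0.21 (SE 0.15), and the adjusted p by limma was 0.999.

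Further hypoxia target genes gave a similar count. Of 41 genes for glycolysis, mitophagy, matrix and stress, 23 had a higher and 18 a lower mean in Top1mt-KO, with a median log2 fold change of 0.04, which was -0.17 without Top1mt-KO replicate 2. The genotypes were without overlap in 1 of 41, against 8.28% of all genes tested. By limma, 0 passed an adjusted p of 0.05 and 2 of 41 had an unadjusted p under 0.05 (4.34% of all genes tested), both higher in Top1mt-KO. One of these, Insig2, a sterol-regulated brake on SREBP processing, was the only gene of the list without overlap, with 10.64, 10.70 and 10.84 in WT and 11.70, 11.73 and 11.98 in Top1mt-KO. Its log2 fold change was 1.08 (SE 0.14, 95% interval 0.75 to 1.41), with an adjusted p of 0.938 by limma. The other, Ddit4, an inhibitor of mTORC1, had 8.43, 7.86 and 7.19 in WT and 8.38, 8.99 and 9.37 in Top1mt-KO, a log2 fold change of 1.09 (SE 0.35; adjusted p = 0.999 by limma). Ddit4 and Ndrg1 both had their highest value in Top1mt-KO replicate 3. Epo, the erythropoietin gene, differed most, by 2.08 (SE 1.05), with 0.12, 2.69 and 1.65 in WT and 4.46, 4.94 and 1.29 in Top1mt-KO.

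The ligands and receptors of the VEGF and adrenomedullin systems were split evenly. Of 12 genes besides the members, 6 had a higher and 6 a lower mean in Top1mt-KO, and 0 had an unadjusted p under 0.05 by limma (4.34% of all genes tested). Vegfb, a VEGF form linked to lipid handling more than to sprouting, was the 1 gene of 12 without overlap (8.28% of all genes tested). It had 6.30, 6.31 and 6.29 in WT and 6.54, 6.80 and 6.49 in Top1mt-KO, a log2 fold change of 0.31 (SE 0.21; adjusted p = 0.999 by limma). Vegfd differed by -0.16 (SE 0.43), and Ramp2 and Ramp3, which make Calcrl an adrenomedullin receptor, by 0.29 (SE 0.31) and 0.34 (SE 0.63). Kdr stayed between 10.55 and 10.92 in all 6 libraries.

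Among the individual tumors, 2 Top1mt-KO libraries stood at opposite ends for the members. Top1mt-KO replicate 2 held the highest value of 7 of 10 members (70%) and of 13 of 41 further targets (31.7%), against 14.2% of all genes tested. Top1mt-KO replicate 3 held the lowest value of 4 of 10 members (40%) and of 20 of 41 further targets (48.8%), against 22.4% of all genes tested. These 2 libraries were picked after their values were seen, and the shares are descriptions. Top1mt-KO replicate 2 lay above Top1mt-KO replicate 3 in 8 of 10 members, with a median difference of 0.32 log2 units, and in 32 of 41 further targets, with a median of 0.59. Over all genes tested it lay above in 51.6%, with a median of 0.02. The 2 members that went the other way were Ndrg1 and Epas1.

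**Figure D4:**
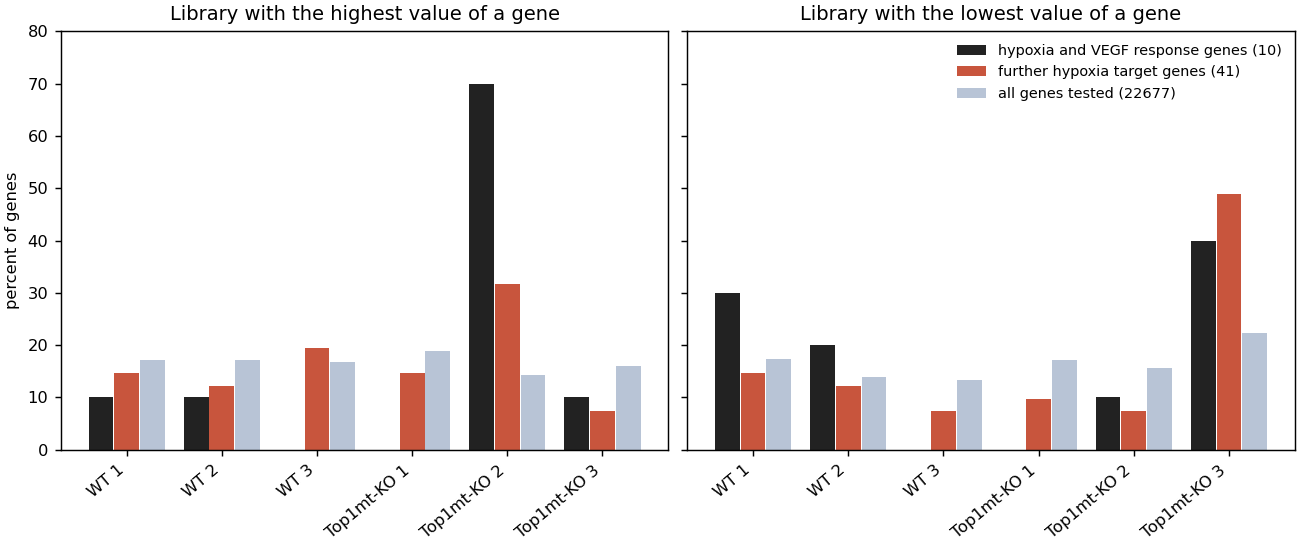
Percent of genes (y axis) whose highest value (left) or lowest value (right) fell in each library (x axis), for the 10 members, 41 further hypoxia target genes and 22677 genes tested. Top1mt-KO replicate 2 takes 70% of the members on the left, and Top1mt-KO replicate 3 takes 48.8% of the further targets on the right.

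Averaged over the members after centring each gene, the libraries stood at -0.20, -0.11 and -0.03 log2 units in WT and at 0.15, 0.45 and -0.25 in Top1mt-KO. The 41 further targets, which share no gene with the members, gave 0.01, -0.06 and -0.09 in WT and 0.06, 0.34 and -0.26 in Top1mt-KO. Both lists thus had Top1mt-KO replicate 2 at the top and Top1mt-KO replicate 3 at the bottom, with the WT libraries between them. For the members, however, the bottom place depended on single genes. It was lost without Ankrd37, the member of widest range, with 3.39 in Top1mt-KO replicate 3, and likewise without Pfkfb3 or without Adm. Even with all members, that library lay only just below WT replicate 1, at -0.25 against -0.20.

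Single genes ranked the libraries in several orders. Ankrd37 ordered the 6 libraries from Top1mt-KO replicate 2 through WT replicate 2, Top1mt-KO replicate 1, WT replicate 3 and WT replicate 1 down to Top1mt-KO replicate 3, an order that 0.631% of the genes tested shared. Egln1, Epo and Fam162a, a mitochondrial HIF target, had another order in common, which 0.0706% of the genes tested shared. In it, Top1mt-KO replicate 2 was again the highest and WT replicate 1 the lowest. Ndrg1 kept to a different order, highest in Top1mt-KO replicate 3 and lowest in WT replicate 2. Among the members, Ndrg1 and Ankrd37 were thus far apart in Top1mt-KO replicate 3, where the first had its maximum and the second its minimum.

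**Figure D5:**
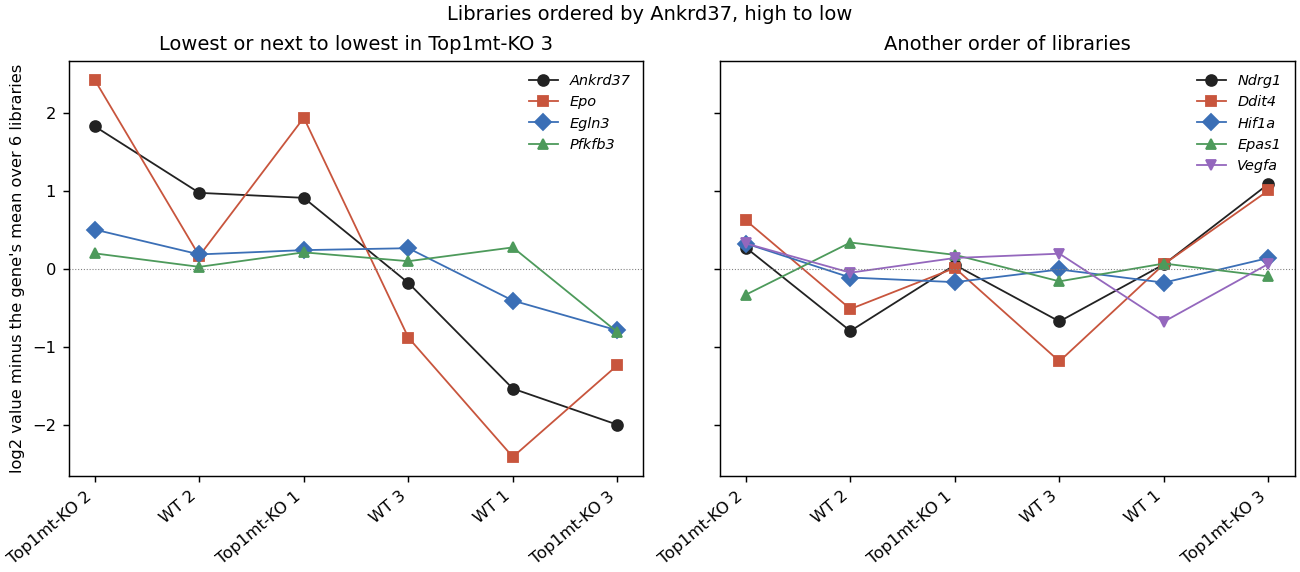
Log2 value minus the gene's mean over the 6 libraries (y axis), with libraries ordered by Ankrd37 from high to low (x axis), for Ankrd37, Epo, Egln3 and Pfkfb3 on the left and for Ndrg1, Ddit4, Hif1a, Epas1 and Vegfa on the right. The left genes end at or next to their lowest value in Top1mt-KO replicate 3, where Ndrg1 and Ddit4 are highest.

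RNA of cell type markers also differed between the libraries. Over all genes tested, 10817 had a higher and 11860 a lower mean in Top1mt-KO. By limma, 4.34% of them had an unadjusted p under 0.05, and 51.6% were higher in Top1mt-KO replicate 2 than in replicate 3. Of 8 stellate cell and fibroblast markers, 6 were higher in Top1mt-KO replicate 2 than in replicate 3, and 7 of 8 had a lower mean in Top1mt-KO (log2 of their summed level 13.12 to 14.64 in WT and 12.21 to 14.26 in Top1mt-KO). Of 9 endothelial markers, 2 were higher in Top1mt-KO replicate 2 than in replicate 3, and 7 of 9 had a higher mean in Top1mt-KO (12.88 to 13.11 in WT and 12.97 to 13.28 in Top1mt-KO). Pericentral hepatocyte markers, which mark the oxygen-poor end of the lobule, had a lower mean in Top1mt-KO in 7 of 7 tested (13.12 to 14.20 in Top1mt-KO and 14.11 to 15.07 in WT). The 4 with an unadjusted p under 0.05 by limma were Slc1a2, Oat, Cyp2e1 and Glul, with log2 fold changes of -2.19, -1.18, -0.89 and -0.77. The count of pericentral markers at that p ran from 2 to 5 over the alternatives, and it was 2 without WT replicate 1, WT replicate 3 or Top1mt-KO replicate 1. It was also 2 for limma without trend, under quantile normalization, with no filter on low values and with the replicate block. Red blood cell markers had a lower mean in 3 of 4 (11.03 to 11.50 in Top1mt-KO and 11.57 to 12.50 in WT), and bile duct markers in 3 of 5 (11.70 to 12.58 and 11.58 to 12.62), with a median log2 fold change of -1.19 over the 5. The summed bile duct level was carried by Spp1, with log2 values of 11.32 to 12.56, whereas Krt19 and Krt7, keratin genes of bile duct cells, had log2 fold changes of -2.68 and -2.19. The other markers with an unadjusted p under 0.05 by limma were Hbb-bs at -0.82, Hba-a1 at -0.83, Lrat at -0.79, Jchain at -1.57 and Cdh5 at 0.40. Periportal markers were lower in 4 of 6, hepatocyte markers in 3 of 5, macrophage markers in 3 of 6, T cell markers in 2 of 4 and B and plasma cell markers in 2 of 4. None of these genes passed the adjusted threshold of limma, and their part in the values of the members was not tested.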

How the data were processed

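RNA from 3 WT and 3 Top1mt-KO liver tumors was sequenced after stranded library preparation. The authors deposited log2 values per gene symbol, normalized between libraries, whose transform is not given in the sources used here. The submitters' processing notes list bcl2fastq 2.17, Trimmomatic 0.36, STAR 2.5.1, Subread and DESeq2 with build GRCm38, whereas the study's methods name BWA and another mouse build, so which run gave the table is not settled. The 3 unnamed columns were not used, and the table had 0 further per-sample columns.

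Genotypes were compared with limma 3.58.1 (R 4.3.3; lmFit, eBayes with trend, Benjamini-Hochberg) after leaving out the lowest 25% of genes by mean, a cutoff of -0.889 on the log2 scale, with 0.05 as the threshold. The procedure was tested on simulated data. Gene models came from GENCODE M21 on GRCm38 and promoters from RefSeq. Named genes are the members, Top1mt and up to 4 genes of largest change from each list of HIF partners, further targets, and ligands and receptors. Not every gene that this rule names is reported here. Marker lists are given by counts and by their genes at an unadjusted p under 0.05, named after their values were seen. The members and lists were chosen with earlier results of these data known. Alternatives were limma without trend, quantile normalization, no filter, a filter at the median, a replicate block, each library left out and, added after seeing the data, WT replicate 2 and Top1mt-KO replicate 1 both left out.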

Additional observations from a re-analysis of the deposited data

How the results depend on the processing

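No member passed an adjusted p of 0.05 by limma in any alternative tried, and the smallest value, 0.633, was that of Ndrg1 without Top1mt-KO replicate 1. Hif1a, Epas1, Vegfa, Egln1 and Ndrg1 kept their direction in all 12 alternatives. Limma without trend, no filter, the filter at the median and the replicate block leave a log2 fold change as it was. Only quantile normalization and the fits with libraries left out could therefore turn a sign. Over all genes, the count at an adjusted p under 0.05 was 4 with no filter on low values and 0 to 1 with each library left out (1 without Top1mt-KO replicate 1). The count of members at an unadjusted p under 0.05 was 0 to 2 with each library left out, 0 without WT replicate 2 or Top1mt-KO replicate 3, 2 (Hif1a and Ndrg1) without Top1mt-KO replicate 1, and without WT replicate 3 it was Vegfa in place of Ndrg1. Over all 22677 genes tested, that count was 860 to 1356 with each library left out, the highest without Top1mt-KO replicate 1. Members without overlap between the groups numbered 1 (Ndrg1) under quantile normalization, 0 to 2 with each library left out, and 2 (Hif1a and Ndrg1) with WT replicate 2 and Top1mt-KO replicate 1 both left out. With fewer libraries, groups separate more easily by arrangement alone. The share of all genes without overlap was not computed for these alternatives, so nothing about a difference between the genotypes can be read from the counts. Signs turned for Adm, at 0.0156 under quantile normalization, 0.0111 with those libraries both left out and -0.301 to 0.144 with each library left out. With each library left out, log2 fold changes also crossed 0 for Egln3 (-0.288 to 0.357), Pfkfb3 (-0.438 to 0.072), Ankrd37 (-0.296 to 1.61) and Car9 (-0.111 to 1.06). Within libraries, Vegfa minus Kdr ran from 0.0617 to 0.472 and Epas1 minus Hif1a from -0.626 to -0.123, without crossing 0. The sign turned for Vegfa minus Hif1a (-0.0535 to 0.297), Adm minus Calcrl (-0.209 to 0.239) and Egln3 minus Egln1 (-0.405 to 0.049). The cause was not tested. Between WT and Top1mt-KO libraries of the same number, correlations across genes of the deviations from the group mean were -0.12, -0.08 and 0.05, and not every library correlated best with its own number, so they were not taken as pairs. The replicate block gave 0 genes at an adjusted p under 0.05 and 912 at an unadjusted p under 0.05, and Ndrg1 was still the 1 member among these. Car9 was not tested with the filter at the median. Depth is unknown, so no counting error can be given for weakly expressed members such as Car9.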
